A study of Homo sapiens with 24 samples.

Results

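The 10 genes described here belong to the WNT signalling pathway and were taken from the deposited count table by symbol, out of 35993 genes listed. They are 5 secreted ligands (WNT5A, WNT7A, WNT7B, WNT10A and WNT11), the co-receptor LRP6, the secreted antagonist DKK1, and AXIN2, LEF1 and TCF7, which act inside the cell. Transcripts were counted by RNA sequencing in 24 libraries of J82 and RT-112, established human cell lines from bladder carcinoma. There were 4 groups of 3 replicates per line: parental cells, which are the controls, and newly established sublines named CD44 Low, CD44 High and CD44v6 for the abundance of the surface receptor CD44 or of its splice form with variant exon 6. No drug, transgene or time point is named for any group, and how the sublines were obtained or whether each is a clone is not given in the sources used here. The question put to the data was which of the 10 genes differ between the groups of a line, and whether the 2 lines do the same.

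WNT proteins are secreted, lipid-modified signals that bind Frizzled receptors on the cell surface. When LRP5 or LRP6 joins the receptor, the destruction complex that contains AXIN and APC is inhibited, beta-catenin accumulates, and it acts in the nucleus with TCF and LEF factors. Other WNT signals, for which WNT5A and WNT11 are the usual examples, act through ROR, RYK or PTK7 and change cell polarity and movement without beta-catenin. AXIN2, LEF1, TCF7 and DKK1 are known as genes that beta-catenin can switch on, and AXIN2 and DKK1 then restrain the pathway. WNT7A, WNT7B and WNT10A are known mostly as signals of epithelia.

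Levels are given as CPM, a gene's count relative to the total of its library after TMM scaling of all 24 libraries together, and changes as log2 fold changes from edgeR quasi-likelihood F-tests. A change is called at a Benjamini-Hochberg adjusted p under 0.05 over all genes tested. Total counts ran from 16752825 to 24419670 per library, so 3 counts, used here as the floor of a group at 0, correspond to 0.129 to 0.178 CPM. CD44, which names the groups, was lowest in CD44 Low in each line, at 254 to 309 CPM in J82 and 120 to 152 CPM in RT-112, and every CD44 High and CD44v6 library lay above the parental range of its line. Against parental J82 cells CD44 was called in CD44 Low (-0.68, adjusted p = 0.0329), CD44 High (0.71, adjusted p = 0.0355) and CD44v6 (0.85, adjusted p = 0.0214). The CD44 Low and CD44 High calls ended without each library of the groups compared in turn. The CD44v6 call ended without parental replicate 1, 2 or 3 (adjusted p of 0.0764 to 0.121) and in the fit of the groups compared (0.0866). In RT-112 the CD44v6 increase over parental cells was not called, but passed in the fit of these groups alone (adjusted p = 0.0326). Of 10 epithelial and urothelial markers, RT-112 had at least 3 counts of all 10 in every library. J82 had 7 or 8 of the 10 per group: KRT5 was at 0 in every J82 library, and TP63 and GATA3 had between 0 and 15 counts. CDH1 and EPCAM passed this count in J82 but were low, with group means of 0.508 to 5.71 and 1.11 to 2.30 CPM. In RT-112 their means were 307 to 355 and 286 to 409 CPM. Of 6 mesenchymal markers, J82 had at least 3 counts of all 6 in every library, and RT-112 of 3 or 4 per group. Replicate 2 of J82 CD44v6 stood apart from the other J82 CD44v6 libraries. It was the highest of the 3 for CD44, WNT5A, WNT7A, WNT7B, LEF1, TCF7 and LRP6. Some results that rest on it are also given without it.

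RefSeq promoter windows of 300 bases (250 before to 50 after a start, assembly GRCh38.p14) matched 6 of the 10 genes, with 8 windows. They are shown for DKK1, WNT5A and WNT7A, the genes whose transcripts changed most often in J82. Each window is written 5′ to 3′ on the gene's own strand, and capitals mark a match to CTTTGAA, a core motif of TCF and LEF factors. The DKK1 window is chr10:52314031-52314330 on the plus strand, the WNT5A windows are chr3:55481349-55481648 and chr3:55487257-55487556 on the minus strand, and the WNT7A window is chr3:13880022-13880321 on the minus strand.
DKK1 window: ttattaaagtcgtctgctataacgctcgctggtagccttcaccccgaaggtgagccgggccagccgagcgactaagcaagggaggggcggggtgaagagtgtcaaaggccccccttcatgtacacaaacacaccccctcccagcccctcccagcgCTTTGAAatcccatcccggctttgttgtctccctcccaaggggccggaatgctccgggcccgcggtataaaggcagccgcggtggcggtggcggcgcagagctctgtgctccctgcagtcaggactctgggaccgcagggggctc
WNT5A window A: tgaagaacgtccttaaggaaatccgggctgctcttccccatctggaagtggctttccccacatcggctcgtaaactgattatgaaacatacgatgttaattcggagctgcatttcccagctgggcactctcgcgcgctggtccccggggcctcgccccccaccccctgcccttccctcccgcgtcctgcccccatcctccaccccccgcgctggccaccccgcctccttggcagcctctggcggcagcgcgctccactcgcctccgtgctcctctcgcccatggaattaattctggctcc
WNT5A window B: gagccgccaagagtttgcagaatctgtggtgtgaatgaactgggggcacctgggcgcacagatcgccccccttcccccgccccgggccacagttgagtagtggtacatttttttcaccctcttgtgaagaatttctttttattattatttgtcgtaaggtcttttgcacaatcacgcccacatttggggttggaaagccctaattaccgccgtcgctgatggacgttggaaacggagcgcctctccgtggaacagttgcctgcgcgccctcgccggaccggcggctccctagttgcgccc
WNT7A window: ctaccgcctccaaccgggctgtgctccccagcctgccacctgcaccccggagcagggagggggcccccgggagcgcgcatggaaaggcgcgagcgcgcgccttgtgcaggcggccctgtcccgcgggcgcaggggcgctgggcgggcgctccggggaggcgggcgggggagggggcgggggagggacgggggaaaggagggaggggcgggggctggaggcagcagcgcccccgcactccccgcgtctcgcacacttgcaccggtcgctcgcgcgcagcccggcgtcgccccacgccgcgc
Both CTTTGAA and CTTTGAT were searched on both strands (reverse complements TTCAAAG and ATCAAAG), and a position on a strand cannot match both. Of the 8 windows, the DKK1 window alone held a match, CTTTGAA on the gene's strand 95 bases before the start. Over all 35116 windows, 4.43% held CTTTGAA, 2.62% held CTTTGAT and 6.86% held either. The windows without a match show only that these letters are not there. The WNT7A window was 80.3% G and C with 40 CpG dinucleotides, against medians of 58.7% and 14 over all windows, and the WNT5A windows had 63.7% and 56.3% G and C.

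The parental lines carried different WNT genes. At an adjusted p under 0.05, 9 of the 10 genes differed between parental J82 and parental RT-112, where 62% of all 17438 genes tested were called. Of the 9, 5 were higher in J82 (31% of all genes) and 4 lower (31%). WNT11, WNT10A, WNT7B and LRP6 were lower in J82, and WNT5A, DKK1, AXIN2, LEF1 and TCF7 were higher. WNT7A was the gene not called, at 8.54 to 9.32 CPM in J82 and 10.3 to 12.6 CPM in RT-112, ranges that did not overlap (log2 fold change -0.38, SE 0.23, adjusted p = 0.171).

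WNT11 was at 0 in all 3 parental J82 libraries and at 47.6, 50.1 and 45.1 CPM in parental RT-112. Against the floor of 3 counts per library it was at least 290-fold lower in J82. WNT10A was at 0.178, 0.493 and 0.157 CPM in parental J82 and at 30.9, 33.3 and 26.2 CPM in parental RT-112 (log2 fold change -6.78, SE 0.41, adjusted p = 3.3e-12). Its J82 values rest on 3 to 9 counts, and without J82 parental replicate 2 the log2 fold change was -7.47. WNT7B, at 0.876 to 1.16 CPM in J82 and 16.6 to 18.7 CPM in RT-112, was 17-fold lower in J82 (log2 fold change -4.09, SE 0.49, adjusted p = 2.13e-07).

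Among the genes with the reverse order, LEF1 and AXIN2 had next to no counts in RT-112. LEF1, a TCF/LEF transcription factor, had 0 counts in all 12 RT-112 libraries and 3.91, 4.05 and 5.08 CPM in parental J82, at least 25.6-fold higher. AXIN2 had 0 counts in 11 of 12 RT-112 libraries and 7 counts in the remaining library, CD44 Low replicate 2. In parental J82 AXIN2 was at 2.002, 1.59 and 2.51 CPM, at least 12-fold above the RT-112 floor. WNT5A was 5.06-fold higher in parental J82, at 21.5 to 27.6 CPM against 4.64 to 5.20 CPM (log2 fold change 2.34, SE 0.25, adjusted p = 4.71e-08). DKK1 was 3.35-fold higher, at 135 to 140 CPM against 40.5 to 42.8 CPM (1.74, SE 0.11, adjusted p = 8.77e-12). TCF7 was low in both, at 0.493 to 1.29 CPM in J82 and 0.170 to 0.650 CPM in RT-112, with overlapping ranges. Its call (1.09, SE 0.43, adjusted p = 0.0338) ended without J82 parental replicate 1 or 3 or RT-112 parental replicate 1 or 2, at adjusted p of 0.0564 to 0.211, and in the fit of the parental groups alone (0.0608). In that fit WNT7A passed (adjusted p = 0.0228), so the count stayed at 9.

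**Figure D1:**
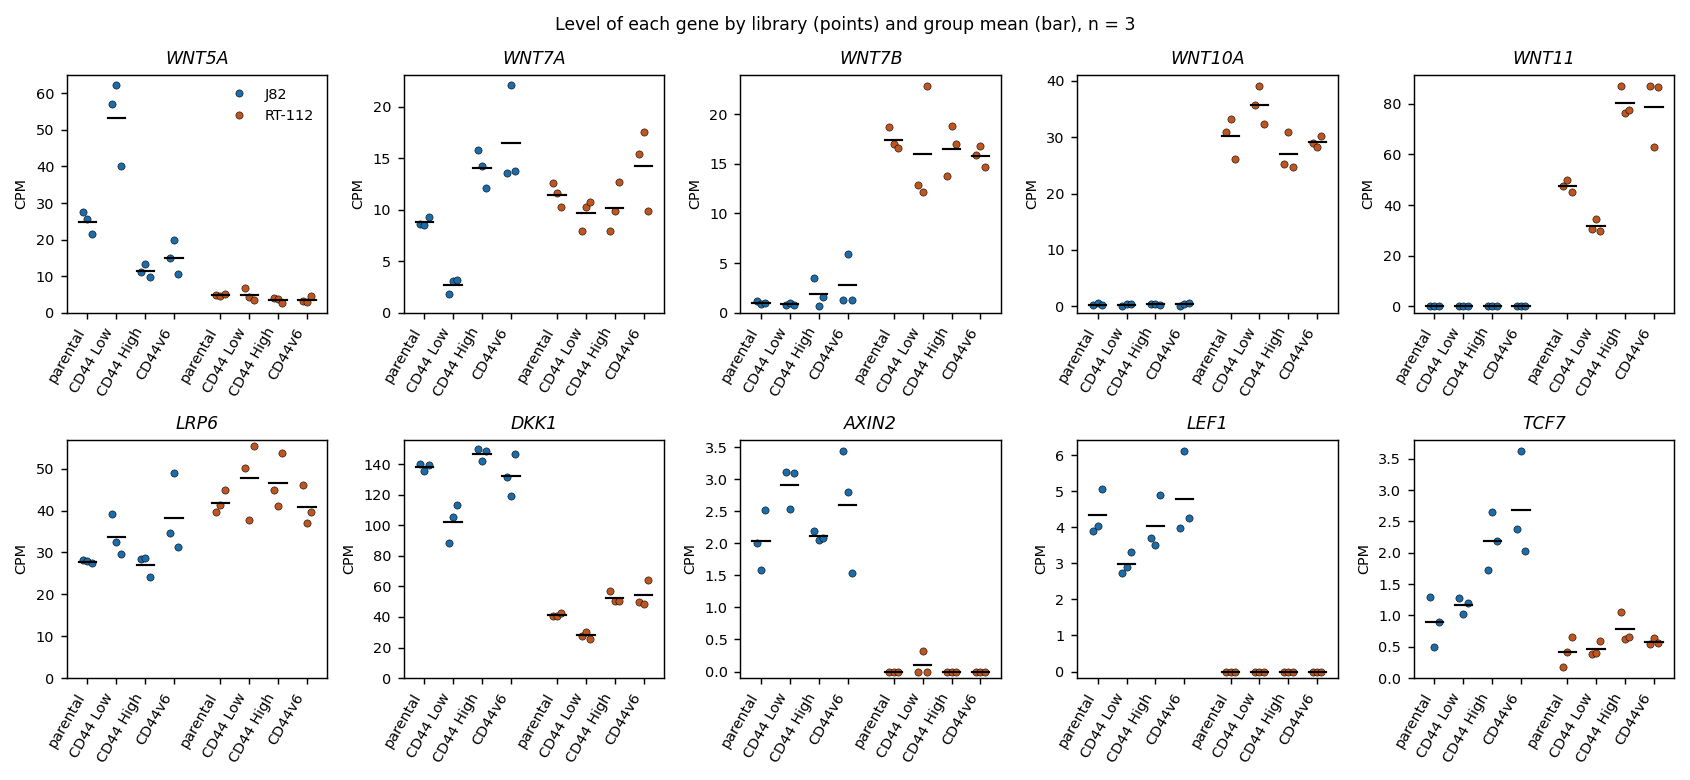
CPM (linear axis starting at 0) of each of the 10 genes by group; points are the 3 libraries of a group and bars are group means, J82 in blue and RT-112 in orange. WNT11 and WNT10A are near 0 throughout J82, LEF1 is at 0 throughout RT-112, and WNT5A and WNT7A move in opposite directions across the J82 groups.

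The 19 human WNT ligands were compared per kilobase of exon, so that long and short transcripts can be set beside each other (exon lengths from GENCODE 29, an annotation that need not be the one counted against). In parental J82 the most abundant ligand transcript was WNT5B at 23.0 CPM per kb, followed by WNT5A at 3.93, WNT7A at 2.19 and WNT3 at 1.15. In parental RT-112 it was WNT11 at 24.7 CPM per kb, followed by WNT10A at 11.8, WNT7B at 3.45 and WNT7A at 2.84. WNT5B, a close relative of WNT5A, and WNT3 lie outside the 10 genes and are named because they rank with them. Of the summed ligand transcript per kb, WNT5B made up 74.1% ± 0.216 (SD, n = 3) in parental J82 and WNT11 made up 54.0% ± 0.933 (SD, n = 3) in parental RT-112. WNT5A made up 12.6% ± 0.803 of the J82 sum in parental cells, 33.7% ± 6.27 in CD44 Low, 4.61% ± 0.555 in CD44 High and 7.14% ± 2.40 in CD44v6 (SD, n = 3 each; shares were not tested). WNT11 made up 41.9% ± 1.40 of the RT-112 sum in CD44 Low, 68.3% ± 3.88 in CD44 High and 65.5% ± 4.87 in CD44v6 (SD, n = 3 each). The sum itself was lowest in CD44 Low in both lines, with means of 24.7 CPM per kb in J82 and 39.0 in RT-112, against 39.1 and 60.9 in CD44 High.

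**Figure D2:**
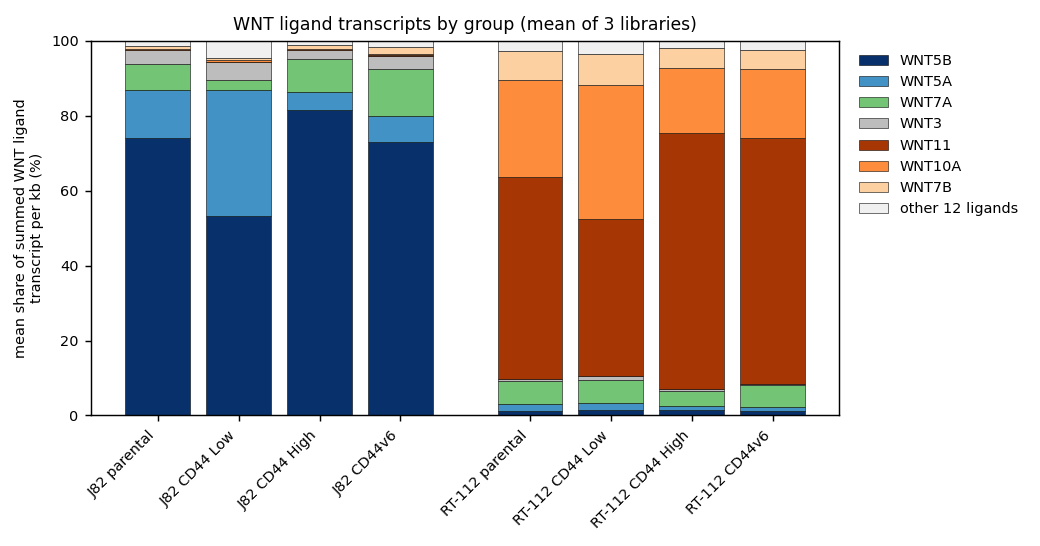
Mean share of each ligand in the summed WNT ligand transcript per kb (percent, 3 libraries per group), as stacked bars for the 8 groups. WNT5B holds most of each J82 bar, with WNT5A widest in CD44 Low, and WNT11 and WNT10A hold most of each RT-112 bar.

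Within J82, 8 of the 10 genes passed the filter on low counts; WNT11 and WNT10A did not. WNT5A, which is known for signalling without beta-catenin, was at 27.6, 25.7 and 21.5 CPM in parental cells. The CD44 Low libraries gave 57.0, 62.1 and 40.2 CPM, those of CD44 High 11.2, 13.3 and 9.92 CPM and those of CD44v6 14.9, 19.8 and 10.5 CPM. All CD44 Low libraries lay above the parental range and all CD44 High and CD44v6 libraries below it, while CD44 High and CD44v6 overlapped. WNT5A was 4.61-fold lower in CD44 High cells than in CD44 Low (log2 fold change -2.20, SE 0.22, adjusted p = 2.76e-05) and 3.52-fold lower in CD44v6 cells than in CD44 Low (-1.81, SE 0.22, adjusted p = 0.00016). Against parental cells it was higher in CD44 Low (1.09, SE 0.21, adjusted p = 0.0103) and lower in CD44 High (-1.12, SE 0.22, adjusted p = 0.016). The difference between CD44v6 and parental cells was not called (-0.73, adjusted p = 0.0962), but passed with DESeq2 (adjusted p = 0.0285). Both calls against parental cells depended on single libraries: the CD44 Low call ended without parental replicate 3 (adjusted p = 0.0613), and the CD44 High call ended without parental replicate 1 or 2 or CD44 High replicate 1 or 3 (adjusted p of 0.0583 to 0.0880).

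WNT7A ran the other way in J82. It was at 8.67, 8.54 and 9.32 CPM in parental cells. Libraries of CD44 Low had 1.78, 3.13 and 3.21 CPM, those of CD44 High 15.8, 14.3 and 12.1 CPM and those of CD44v6 13.6, 22.1 and 13.8 CPM. The CD44 Low libraries were all below the parental range, and the CD44 High and CD44v6 libraries were all above it and overlapped each other. WNT7A was 5.21-fold higher in CD44 High cells than in CD44 Low (2.38, SE 0.24, adjusted p = 3.2e-05) and 6.09-fold higher in CD44v6 cells than in CD44 Low (2.61, SE 0.24, adjusted p = 1.82e-05). It was 3.27-fold lower in CD44 Low cells than in their parents (-1.71, SE 0.24, adjusted p = 0.00138). These 3 calls held without each library in turn, CD44v6 replicate 2 included. The increases over parental cells were not called, at 0.67 (adjusted p = 0.14) in CD44 High and 0.90 (adjusted p = 0.0504) in CD44v6. The latter passed without CD44v6 replicate 3 (adjusted p = 0.0308) and with DESeq2 (adjusted p = 0.00545), and the former in the fit of the 2 groups alone (adjusted p = 0.0151). The fit without replicate 3 kept CD44v6 replicate 2, the highest library of that group.

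The ratio of WNT5A to WNT7A per kb shows how far the 2 ligands moved apart in J82. It was 2.03, 1.91 and 1.47 in parental cells, 20.4, 12.6 and 7.98 in CD44 Low, 0.451, 0.595 and 0.521 in CD44 High, and 0.698, 0.570 and 0.487 in CD44v6. WNT5A was therefore the more abundant of the 2 in every parental and CD44 Low library of J82, and WNT7A in every CD44 High and CD44v6 library. In RT-112 the ratio lay between 0.109 and 0.554 in all 12 libraries.

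Marker transcripts of several cell types also differed in level between the J82 groups. The summed level of 5 fibroblast markers was 557 to 622 CPM in parental cells. In CD44 Low it was at 1006 to 1300 CPM, in CD44 High at 402 to 451 CPM and in CD44v6 at 406 to 511 CPM. COL3A1 made up most of that sum, with means of 577, 1106, 411 and 454 CPM in the same order, 4 of the 5 markers had at least 3 counts in every library, and DCN was at 0 in all 12. Of 5 immune markers only CD68 had at least 3 counts in every J82 library, and the summed level was 76.9 to 121 CPM in CD44 Low against 151 to 175 CPM in parental cells, 141 to 216 CPM in CD44 High and 104 to 184 CPM in CD44v6, which overlapped CD44 Low. The summed level of the 10 epithelial markers was 6468 to 7874 CPM in CD44 Low, 8038 to 9583 CPM in parental cells, 8753 to 10637 CPM in CD44 High and 8811 to 9406 CPM in CD44v6. KRT7, KRT8, KRT18 and KRT19 made up nearly all of that sum. Among single markers, KRT7 had means of 1993 CPM in parental cells, 1047 in CD44 Low, 2824 in CD44 High and 2409 in CD44v6, and like WNT7A it was lowest in CD44 Low. EPCAM, KRT8, KRT18, KRT19 and PPARG also had their lowest means there. At low levels CDH1 went the other way, with means of 2.54, 5.71, 0.508 and 1.77 CPM in the same order. GATA3 and TP63, near the floor, were highest in CD44 Low as well. The mesenchymal marker VIM had means of 368, 231, 606 and 537 CPM in the same order of groups, lowest where the fibroblast sum was highest. CDH2 and ZEB1 were also lowest in CD44 Low. ZEB2 (164, 206, 134 and 163 CPM), FN1 (327, 422, 311 and 336 CPM) and TWIST1 were highest there instead. The summed level of the 6 mesenchymal markers was 1075 to 1360 CPM in CD44 Low, overlapping 1154 to 1286 CPM in parental cells. The part of these transcripts in the WNT5A and WNT7A values was not tested. In bulk RNA, fewer cells of a type and less RNA per cell cannot be told apart.

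The other 3 ligands were low in J82. WNT7B was at 0.876 to 1.16 CPM in parental cells. For CD44 Low the values were 0.780 to 0.972 CPM, for CD44 High 3.48, 0.735 and 1.57 CPM and for CD44v6 1.31, 5.89 and 1.26 CPM. A single library was far above its replicates in each of the last 2 groups, CD44 High replicate 1 and CD44v6 replicate 2. No WNT7B difference was called in J82, and the estimate for CD44v6 against CD44 Low fell from 1.71 to 0.61 without CD44v6 replicate 2. WNT10A had 0 to 11 counts per J82 library and WNT11 had 0 counts in 9 of 12, with 2 or 3 counts in each CD44v6 library.

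Within RT-112, 8 of the 10 genes again passed the filter; AXIN2 and LEF1 did not. WNT11 was at 47.6, 50.1 and 45.1 CPM in parental cells. The CD44 Low libraries gave 30.4, 34.6 and 29.9 CPM, those of CD44 High 87.2, 76.4 and 77.6 CPM and those of CD44v6 87.2, 62.8 and 86.8 CPM. The order was CD44 High and CD44v6, which overlapped, then parental, then CD44 Low, and neither of the last 2 overlapped any other group. WNT11 was 2.60-fold higher in CD44 High cells than in CD44 Low (1.38, SE 0.13, adjusted p = 7.39e-05) and 2.48-fold higher in CD44v6 cells than in CD44 Low (1.31, SE 0.13, adjusted p = 0.000104). Against parental cells it was lower in CD44 Low (-0.62, SE 0.13, adjusted p = 0.0202) and higher in CD44 High (0.76, SE 0.13, adjusted p = 0.0181) and in CD44v6 (0.69, SE 0.13, adjusted p = 0.0285). WNT11 was thus called in 5 of the 6 RT-112 comparisons, more than any other of the 10 genes in that line.

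The WNT11 calls against CD44 Low held without each library in turn. The CD44 Low call against parental cells ended without parental replicate 1 or 2 or CD44 Low replicate 1 (adjusted p of 0.0806 to 0.105). The CD44 High call ended without parental replicate 1, 2 or 3 or CD44 High replicate 1 (0.0729 to 0.144), and the CD44v6 call without parental replicate 1, 2 or 3 or CD44v6 replicate 1 or 3 (0.0926 to 0.142). The log2 fold changes of these 3 differences stayed between -0.69 and -0.58, between 0.68 and 0.80 and between 0.61 and 0.83 over the fits that left out a library. The summed level of 6 mesenchymal markers, of which 3 or 4 had at least 3 counts in every library of a group, was lowest in CD44 Low in RT-112, as WNT11 was. It was 307 to 372 CPM in parental cells. Libraries of CD44 Low had 207 to 243 CPM, those of CD44 High 418 to 768 CPM and those of CD44v6 524 to 899 CPM, and FN1 made up most of it. FN1 had means of 321 CPM in parental cells, 214 in CD44 Low, 534 in CD44 High and 706 in CD44v6, whereas those of VIM, CDH2 and ZEB1 were lower in CD44 High and CD44v6 than in parental cells. VIM had means of 0.810 to 1.88 CPM, and TWIST1 was at 0 in all 12 libraries. The epithelial markers KRT5 (563, 365, 671 and 702 CPM in the same order of groups) and TP63 (138, 88.4, 141 and 152 CPM) were also lowest in CD44 Low. EPCAM (330, 286, 409 and 366 CPM) was too, but CDH1, KRT7, KRT8, KRT18, KRT19, GATA3 and PPARG had their highest means there. The summed level of the 10 epithelial markers was 12647 to 14886 CPM in CD44 Low, overlapping 11899 to 12734 CPM in parental cells. It was 10501 to 11680 CPM in CD44 High and 11820 to 12412 CPM in CD44v6. As in J82, the summed level of the 5 fibroblast markers was highest in CD44 Low in RT-112, at 215 to 272 CPM. It was 164 to 198 CPM in parental cells, 120 to 184 CPM in CD44 High and 127 to 183 CPM in CD44v6. LUM made up most of that sum, with means of 175, 232, 141 and 160 CPM in parental, CD44 Low, CD44 High and CD44v6 cells. The part of these transcripts in the WNT11 values was not tested.

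WNT10A, a ligand of skin and other epithelia, had the reverse tendency in RT-112. It was at 30.9, 33.3 and 26.2 CPM in parental cells. In CD44 Low it was at 35.8, 39.2 and 32.3 CPM, in CD44 High at 25.2, 31.0 and 24.7 CPM and in CD44v6 at 29.01, 28.3 and 30.1 CPM. All CD44 Low libraries lay above all CD44 High libraries, and the parental libraries overlapped both. The difference between CD44 High and CD44 Low was small and called (-0.38, SE 0.11, adjusted p = 0.0414). The call ended without CD44 Low replicate 1 or 2 or CD44 High replicate 1 or 3 (adjusted p of 0.0944 to 0.146) and in the fit of these 2 groups alone (0.101).

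WNT5A, WNT7A and WNT7B had no called difference in RT-112. WNT5A was at 2.60 to 6.90 CPM over the 12 libraries, WNT7A at 7.93 to 17.6 CPM and WNT7B at 12.2 to 22.9 CPM, and the ranges of neighbouring groups in order of level overlapped for all 3. WNT5A did not overlap parental cells (4.64 to 5.20 CPM) in CD44 High (2.60 to 4.17 CPM) or CD44v6 (3.02 to 4.54 CPM), with uncalled log2 fold changes of -0.48 (adjusted p = 0.499) and -0.50 (adjusted p = 0.411). WNT7A in CD44v6 against CD44 Low was the nearest to a call (0.56, adjusted p = 0.0982), and it passed without CD44v6 replicate 3 (adjusted p = 0.0418).

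LRP6, the co-receptor that carries the signal to beta-catenin, was at 28.2, 27.9 and 27.4 CPM in parental J82. For CD44 Low the values were 39.2, 32.4 and 29.6 CPM, for CD44 High 28.3, 28.7 and 24.1 CPM and for CD44v6 34.6, 49.0 and 31.2 CPM. In RT-112 it lay between 37.1 and 55.3 CPM, with overlap between all groups that stood next to each other in level. No LRP6 difference was called within a line, though that of J82 CD44v6 against parental cells (0.46, adjusted p = 0.138) passed without CD44v6 replicate 3 (adjusted p = 0.0440). That fit kept CD44v6 replicate 2, the highest library of its group. Between the parental lines LRP6 was 1.51-fold lower in J82 (-0.59, SE 0.16, adjusted p = 0.0027).

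DKK1, a secreted protein that binds LRP6 and blocks it, was the only one of the 10 genes called in the same comparison and direction in both lines. In J82 it was at 140, 135 and 139 CPM in parental cells. The CD44 Low libraries gave 88.3, 106 and 113 CPM, those of CD44 High 150, 142 and 149 CPM and those of CD44v6 132, 119 and 147 CPM. In RT-112 it was at 40.6, 40.5 and 42.8 CPM in parental cells. Libraries of CD44 Low had 27.8, 30.3 and 25.8 CPM, those of CD44 High 57.1, 50.6 and 50.2 CPM and those of CD44v6 49.9, 48.3 and 64.4 CPM. In each line the 3 CD44 Low libraries were below every other library of that line.

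DKK1 was higher in CD44 High cells than in CD44 Low in J82 (0.53, SE 0.10, adjusted p = 0.004) and in RT-112 (0.94, SE 0.12, adjusted p = 0.00042). CD44v6 exceeded CD44 Low by 0.38 in J82 (SE 0.10, adjusted p = 0.0359) and by 0.95 in RT-112 (SE 0.12, adjusted p = 0.000396). CD44 Low fell below parental cells in J82 (-0.44, SE 0.10, adjusted p = 0.0278) and in RT-112 (-0.60, SE 0.12, adjusted p = 0.0178). The RT-112 increases and the J82 increase in CD44 High held without each library in turn. In J82 the CD44v6 call ended without CD44 Low replicate 1 or 2 or CD44v6 replicate 1 or 3 (adjusted p of 0.0767 to 0.108), without the filter on low counts (0.0566) and in the fit of the 2 groups alone (0.186). The J82 CD44 Low call against parental cells ended without parental replicate 1, 2 or 3 or CD44 Low replicate 1 or 2 (0.0651 to 0.110). In RT-112 the CD44 Low call against parental cells ended without parental replicate 1, 2 or 3 or CD44 Low replicate 1 (0.0643 to 0.0836). The DKK1 window printed above is the window with a match to CTTTGAA or CTTTGAT, the forms of the TCF/LEF motif that were searched. Other forms were not searched, and a match says nothing of whether a factor was bound there.

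The 3 intracellular genes were measured at low levels in J82. AXIN2, a scaffold of the destruction complex, was at 2.002, 1.59 and 2.51 CPM in parental cells. In CD44 Low it was at 3.12, 2.54 and 3.09 CPM, in CD44 High at 2.19, 2.06 and 2.09 CPM and in CD44v6 at 3.44, 2.80 and 1.53 CPM. These levels rest on 28 to 71 counts, and no AXIN2 difference within J82 was called (CD44 Low against parental 0.51, adjusted p = 0.353). LEF1 was at 3.91, 4.05 and 5.08 CPM in parental cells. For CD44 Low the values were 2.73, 2.91 and 3.32 CPM, for CD44 High 3.70, 3.53 and 4.91 CPM and for CD44v6 3.97, 6.13 and 4.27 CPM. All CD44 Low libraries were below all other J82 libraries for LEF1, but no difference was called (CD44v6 against CD44 Low 0.68, adjusted p = 0.0884).

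TCF7 was at 1.29, 0.493 and 0.890 CPM in parental J82. The CD44 Low libraries gave 1.28, 1.03 and 1.202 CPM, those of CD44 High 1.72, 2.64 and 2.19 CPM and those of CD44v6 2.38, 3.63 and 2.03 CPM. Every CD44 High and CD44v6 library lay above every parental and CD44 Low library. The increase of CD44v6 over parental cells was called (1.56, SE 0.38, adjusted p = 0.0482), and the increase of CD44 High was not (1.28, adjusted p = 0.0985), though it passed with DESeq2 (adjusted p = 0.0498). CD44v6 against CD44 Low was not called either (1.19, adjusted p = 0.0646) and passed with DESeq2 (adjusted p = 0.0382). The TCF7 call ended without parental replicate 1, 2 or 3 or CD44v6 replicate 1 or 2 (adjusted p of 0.0734 to 0.188), without the filter on low counts (0.0642) and in the fit of the 2 groups alone (0.108). In RT-112 TCF7 had 3 to 18 counts per library and no called difference. The TCF7 locus overlaps SKP1, an abundant gene on the opposite strand with up to 8648 counts, and whether the counting used strand is not given in the sources used here, so reads of the 2 genes cannot be told apart with certainty. LEF1, DKK1 and LRP6 also overlap genes on the opposite strand, but those in the count table had at most 8, 19 and 5 counts in a library. WNT11 and WNT5A overlap the antisense genes AP000785.1 and WNT5A-AS1, and AXIN2 overlaps AC004805.1 on its own strand. These 3 are not listed in the count table, so their counts are not known. The same holds for AC007537.2, RNU6-545P and AC007621.1, which overlap LRP6.

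**Figure D3:**
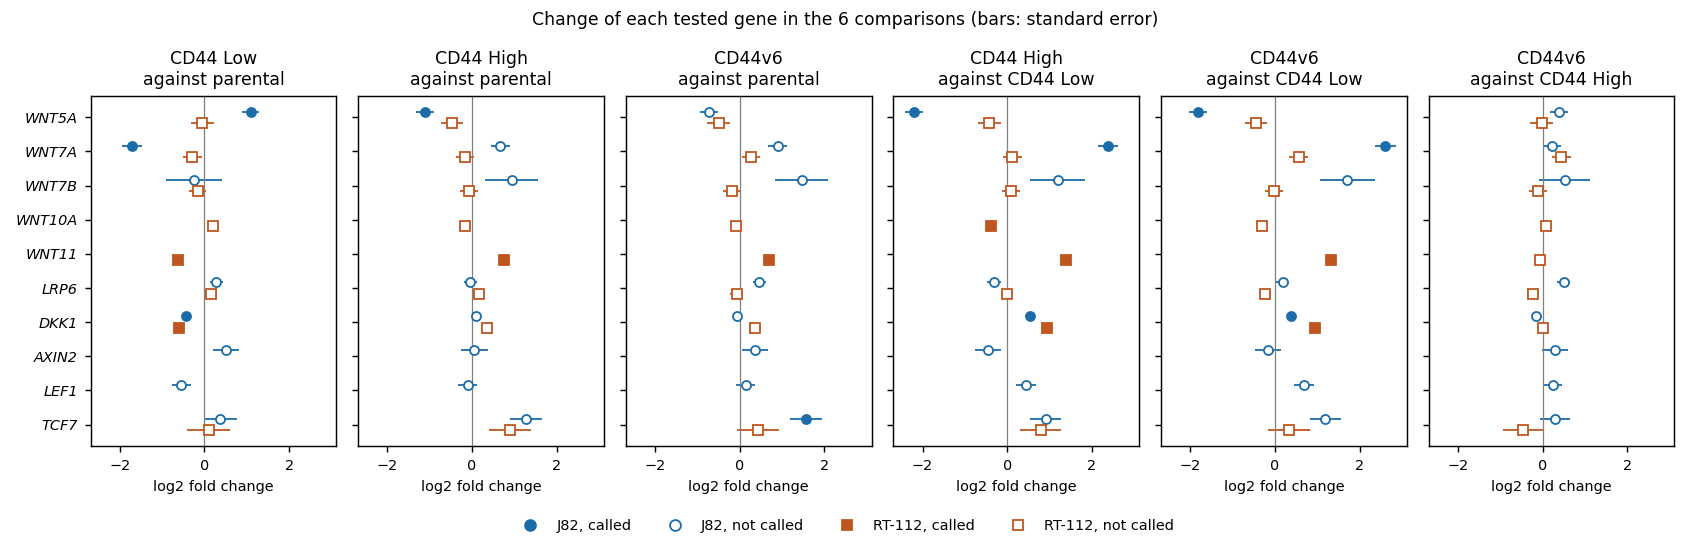
Log2 fold change (horizontal axis, bars show the standard error) of each of the 10 genes in the 6 comparisons within a line, J82 as blue circles and RT-112 as orange squares; filled symbols were called at an adjusted p under 0.05, and genes that failed the low-count filter in a line have no symbol. WNT5A and WNT7A stand far from 0 on opposite sides in J82, WNT11 stands apart in RT-112, and DKK1 moves the same way in both lines.

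Counted over comparisons, CD44 High against CD44 Low called 3 of 8 tested genes in J82 (WNT7A and DKK1 higher, WNT5A lower) and 3 of 8 in RT-112 (WNT11 and DKK1 higher, WNT10A lower), where 15.7% and 16% of all genes were called. For CD44v6 against CD44 Low the counts were 3 of 8 in J82 (9.58% of all genes) and 2 of 8 in RT-112 (16%). Against parental cells, CD44 Low had 3 of 8 called in J82 (5.34%) and 2 of 8 in RT-112 (3.2%), CD44 High had 1 of 8 in each line (2.94% and 0.511%), and CD44v6 had 1 of 8 in each line (2.6% and 0.614%). With 8 genes tested, these counts are small and are not read as a property of the list.

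CD44v6 against CD44 High called 0 of 8 genes in either line, by edgeR and by DESeq2. All genes together gave 0 calls in each line by edgeR (0%) and 74 in J82 and 2 in RT-112 by DESeq2. The RT-112 result depended on a single library: without CD44 High replicate 2, edgeR called 431 of all genes, though still 0 of the 8. Without adjustment, p lay under 0.05 for 1536 genes (9.63%) in J82, among them LRP6 (0.50, adjusted p = 0.457), and for 665 (4.25%) in RT-112, 0 of them among the 10. The groups overlapped for all 8 genes in RT-112, where 7.54% of all genes did not overlap, and for 7 of 8 in J82, where LRP6 was the exception beside 12.1% of all genes.

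Whether the lines differed in these changes was tested as an interaction for the 6 genes that passed the filter in both lines: WNT5A, WNT7A, WNT7B, TCF7, DKK1 and LRP6. In CD44 High against CD44 Low, 2 of 6 were called (10.7% of all genes). The WNT5A change was 1.74 lower in J82 than in RT-112 on the log2 scale (SE 0.36, adjusted p = 0.0033), and the WNT7A change was 2.29 higher (SE 0.35, adjusted p = 0.000171). In CD44v6 against CD44 Low, 3 of 6 were called (7.52% of all genes): WNT5A (-1.36, SE 0.36, adjusted p = 0.0219), WNT7A (2.03, SE 0.34, adjusted p = 0.000718) and DKK1 (-0.58, SE 0.15, adjusted p = 0.0241). In CD44 Low against parental cells, WNT7A alone was called (-1.46, SE 0.35, adjusted p = 0.0419), 1 of 6 where 1.06% of all genes were called. The WNT5A and WNT7A differences in CD44 High and the WNT7A difference in CD44v6 held without each of the 12 libraries involved. The WNT7A difference in CD44 Low ended without each library in turn except J82 CD44 Low replicate 3 and RT-112 CD44 Low replicate 1 (adjusted p of 0.0577 to 0.119), and without the filter on low counts (0.0528). The WNT5A difference in CD44v6 ended without J82 CD44 Low replicate 2, RT-112 CD44 Low replicate 2 or 3 or RT-112 CD44v6 replicate 3 (adjusted p of 0.0533 to 0.0858) and in the fit of the groups compared (0.0672). The DKK1 difference in CD44v6 ended without each library in turn except J82 CD44 Low replicate 1, J82 CD44v6 replicate 3 and RT-112 CD44v6 replicates 1 and 2 (0.0536 to 0.125), without the filter (0.0855) and in the fit of the groups compared (0.130). With DESeq2 the WNT7B difference in CD44v6 passed (adjusted p = 0.0493).

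The rest of the pathway was read from 9 lists with 93 genes in all, the 10 genes included. Of these, 60 were tested in J82 and 67 in RT-112, and 9 were at 0 in every library. In CD44 High against CD44 Low, 23 of 60 were called in J82, 14 higher and 9 lower, and 14 of 67 in RT-112, 12 higher and 2 lower. The median log2 fold change was 0.18 in J82 and 0.15 in RT-112, against -0.02 and 0.02 over all genes tested. In CD44v6 against CD44 Low, 17 of 60 were called in J82 (12 higher, 5 lower) and 16 of 67 in RT-112 (12 higher, 4 lower). The called shares of 38.3% and 20.9%, and of 28.3% and 23.9%, stand beside the percentages of all genes given above. Against parental cells 5 to 10 of 60 were called in J82 and 1 to 5 of 67 in RT-112. These include the 10 genes themselves, and the named genes below were taken from the lists by size of change or by a call in both lines.

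Among proteins that prepare the ligands, PORCN, the enzyme that attaches the lipid, was higher in CD44 High cells than in CD44 Low in both lines. It was at 8.78 ± 5.1 CPM in CD44 Low and 20.5 ± 3.5 CPM in CD44 High in J82 (1.23, adjusted p = 0.0367), and at 4.94 ± 0.55 and 9.21 ± 2.8 CPM in RT-112 (0.93, adjusted p = 0.00714; SD, n = 3 each). The J82 call passed without CD44 Low replicate 3 and ended without each of the other 5 libraries (adjusted p of up to 0.101), without the filter and in the fit of the 2 groups alone (up to 0.0525). WLS, the other gene tested from the list of lipidation, secretion and removal, went the other way in J82. It was called lower in CD44 High cells than in CD44 Low there, and was not called in RT-112.

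WNT5B, the ligand with the most transcript per kb in J82, was at 54.9 to 62.1 CPM in parental cells. Libraries of CD44 Low had 30.2 to 35.7 CPM, those of CD44 High 79.2 to 84.3 CPM and those of CD44v6 51.5 to 71.2 CPM. It was lower in CD44 Low cells than in their parents (-0.81, SE 0.12, adjusted p = 0.002) and higher in CD44 High cells than in CD44 Low (1.28, SE 0.12, adjusted p = 1.72e-05), so its change had the sign of WNT7A and not of WNT5A.

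Receptors of WNT5A and its relatives gave calls in J82. PTK7, a co-receptor of polarity signalling, was at 19.5 ± 1.66 CPM in parental J82, with 12.5 ± 0.362 CPM for CD44 Low, 39.0 ± 4.09 for CD44 High and 33.7 ± 2.56 for CD44v6 (SD, n = 3 each). Its change between CD44 High and CD44 Low was 1.64 (SE 0.11, adjusted p = 9.2e-07), opposite in sign to that of WNT5A. ROR1, a receptor for WNT5A named here after its values were seen, was at 10.8, 7.40, 17.8 and 18.9 CPM in the same order of groups, and it was called in 5 of the 6 J82 comparisons with a change of 1.36 in CD44v6 against CD44 Low (SE 0.15, adjusted p = 7.13e-05). The ROR1 call in CD44 Low against parental cells (-0.55, adjusted p = 0.0499) ended without each of the 6 libraries in turn (up to 0.220), with median-of-ratios size factors and without the filter (up to 0.0822). Its call in CD44 High against parental cells ended without parental replicate 1 or 3 or CD44 High replicate 2 (up to 0.107), and that in CD44v6 without parental replicate 1 or 3 (up to 0.103) and in the fit of the 2 groups alone (0.0542). FZD7, a Frizzled receptor, was higher in CD44 High cells than in CD44 Low in J82 (1.37, SE 0.17, adjusted p = 0.000134) and by less in RT-112 (0.39, SE 0.11, adjusted p = 0.035), where the call ended without CD44 Low replicate 1 or 2 or CD44 High replicate 1 or 2 (up to 0.143), without the filter and in the fit of the 2 groups alone (up to 0.0865).

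Inside the cell, CCND1, the cyclin of the G1 phase and a known beta-catenin target, was at 695 ± 10.8 CPM in parental J82, with 336 ± 14.97 CPM for CD44 Low, 1017 ± 52.3 for CD44 High and 932 ± 91.7 for CD44v6 (SD, n = 3 each). It was called in 5 of the 6 J82 comparisons, with 1.60 (SE 0.08, adjusted p = 2.15e-07) in CD44 High against CD44 Low. The CCND1 call in J82 CD44v6 against parental cells (0.42, adjusted p = 0.0204) ended without parental replicate 1, 2 or 3 or CD44v6 replicate 2 (up to 0.108) and in the fit of the 2 groups alone (0.0757). In RT-112 the difference of CD44 High from CD44 Low was 0.32 (SE 0.08, adjusted p = 0.0165), a call that ended without CD44 Low replicate 1 or 2 or CD44 High replicate 1 (up to 0.0770) and in the fit of the 2 groups alone (0.0681). DVL1, which relays the signal from Frizzled, was higher in CD44 High cells than in CD44 Low in RT-112 (0.83, SE 0.09, adjusted p = 0.000122) and was not called in J82 (0.16, adjusted p = 0.252). APC, part of the destruction complex, was lower in J82 CD44 High than in CD44 Low (-0.60, SE 0.17, adjusted p = 0.028), a call that ended without CD44 Low replicate 1 or CD44 High replicate 2 or 3 (up to 0.133).

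Co-repressors of the TLE family, which bind TCF factors in the nucleus, gave calls in both directions. TLE3 was higher in CD44 High cells than in CD44 Low in J82 (1.58, SE 0.36, adjusted p = 0.0108) and in RT-112 (0.56, SE 0.10, adjusted p = 0.0025). TLE2 was lower in RT-112 CD44 High (-1.40, SE 0.19, adjusted p = 0.000605). TLE4, also named after its values were seen, was at 397 CPM in parental J82, with means of 601 CPM for CD44 Low, 227 for CD44 High and 272 for CD44v6, with a change of -1.40 between CD44 High and CD44 Low (SE 0.15, adjusted p = 3.68e-05). CTNNBIP1, an inhibitor of beta-catenin binding to TCF, was higher in CD44 High cells than in CD44 Low in J82 (0.93, SE 0.20, adjusted p = 0.00624) and in RT-112 (0.69, SE 0.17, adjusted p = 0.0158), where the call ended without CD44 High replicate 1 (0.0696).

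**Figure D4:**
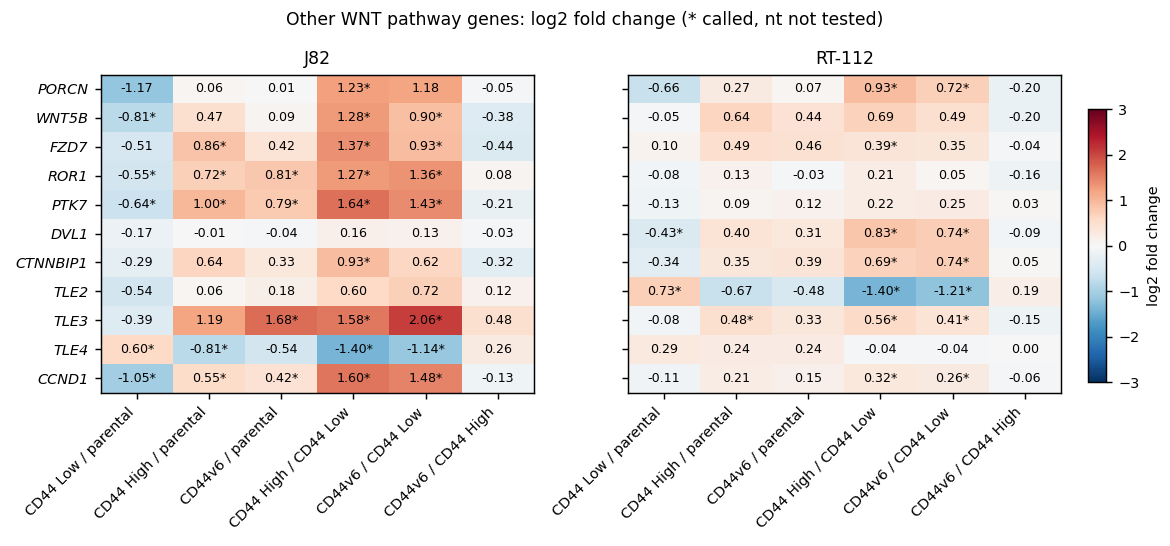
Log2 fold changes of 11 further WNT pathway genes in the 6 comparisons of J82 (left) and RT-112 (right), red for higher and blue for lower in the group named first; an asterisk marks a call at an adjusted p under 0.05. In J82 most rows of CD44 High against CD44 Low are red, with TLE4 blue, and in RT-112 DVL1 is red and TLE2 blue. The rows were chosen by size of change, by a call in both lines or after their values were seen, and APC is not shown. Of the 60 pathway genes tested in J82, 14 were called higher and 9 lower in that comparison. The lower genes include APC, WLS, FZD1, SFRP4, AXIN1, TNKS2 and the target gene TNFRSF19.

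The genes most like each changing member were found by Pearson correlation of log2 CPM over the 12 libraries of a line, among the 9953 (J82) and 9892 (RT-112) genes whose average log2 CPM reached 3. In J82, WNT5A was closest to TLE4 and CLSTN2 (r = 0.99 for each), WNT7A to IGFBP4 and EPHB2 (0.98 each), and DKK1 to TUBA4A and TRIP13 (0.97 each). In RT-112, WNT11 was closest to DSC2 and PRNP (0.98 each) and DKK1 to PRNP and ENO1 (0.98 each). The 12 points of a line share its group structure, so these values describe likeness across the 4 groups and carry no test.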

How the data were processed

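Total RNA of 24 samples of J82 and RT-112 was sequenced, and the authors deposited 1 table of whole-number read counts per gene with no normalization. HISAT2, StringTie and GRCh37 are named per the submitters' processing notes. Their versions, the annotation, the counting step and its use of strand are not given in the sources used here. Replicates are called biological by the submitters. Nothing states that they were separate cultures, so p-values set a difference against the spread between these samples, which may be technical. A CD44 state and the subline named for it coincide in each line, so these replicates cannot tell their effects apart. No pair of replicates agreed within sampling noise (chi-square per degree of freedom from 6.03 to 58.7 over 24 pairs).

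Genes were filtered with filterByExpr (edgeR 4.0.16, R 4.3.3; minimum count 10), scaled by TMM and tested with quasi-likelihood F-tests, two-sided, with Benjamini-Hochberg adjustment over all genes tested. The 12 libraries of a line entered each fit within a line (15951 genes in J82, 15645 in RT-112). All 24 entered the comparison of parental lines and the differences between lines (17438 genes). The 10 genes and all lists were chosen with earlier results of these data known. Further pathway genes were named where both lines had a call of equal sign in a comparison, or as the largest called change of a list in CD44 High against CD44 Low. WNT5B, ROR1 and TLE4 were named after their values were seen. The fits were tested on simulated data. Alternatives were median-of-ratios size factors, no filter, DESeq2 1.42.0, only the groups compared, the replicate number as a block, and leaving out each library. Same-numbered replicates deviated together, with every correlation over 0.1, in 1 of 12 comparisons within lines, J82 CD44v6 against CD44 High (0.11, 0.11 and 0.25). The labels say nothing of a pairing, so it rests on these values.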

Additional observations from a re-analysis of the deposited data

Results flagged for a closer look

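Changes that differed between J82 and RT-112, by an interaction test over all 24 libraries (edgeR quasi-likelihood, Benjamini-Hochberg adjusted), are collected here as J82 minus RT-112 on the log2 scale. There were 20 such values in 11 genes, 6 of them in the 10 WNT genes described above. WNT7A differed by -1.46 in CD44 Low against parental cells, by 2.29 in CD44 High against CD44 Low and by 2.03 in CD44v6 against CD44 Low. WNT5A differed by -1.74 in CD44 High and by -1.36 in CD44v6, and DKK1 by -0.58 in CD44v6, each against CD44 Low.

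Of the other pathway genes, CCND1 differed by -0.98 in CD44 Low against parental cells, by 1.31 in CD44 High against CD44 Low and by 1.21 in CD44v6 against CD44 Low. In CD44 High against CD44 Low the differences were 1.008 for FZD7, 1.45 for PTK7, -0.65 for DVL1, 2.02 for TLE2, 1.09 for ROR1 and -1.31 for TLE4. In CD44v6 against CD44 Low they were 1.64 for TLE3, 1.17 for PTK7, -0.63 for DVL1, 1.29 for ROR1 and -1.10 for TLE4. The TLE2 difference passed without 4 of 12 libraries in turn and the ROR1 difference in CD44 High without 8 of 12, with adjusted p of up to 0.0826 and 0.0683.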

How the results depend on the processing

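Of 32 called changes of the 10 genes with a fold change, 24 were called in every alternative other than leaving out a library, 18 without each library in turn, and 18 in both. No fold change reversed sign among 2431 alternative values, which also include counts of called genes and correlations, for which a reversal was not scored. Uncalled changes of the 10 genes with an unadjusted p of 0.2 or more were left out beforehand. So were uncalled changes of the other named pathway genes, so the values nearest to no change were not examined for sign. J82 CD44 High against parental cells, with 1 gene called, gave 2 with DESeq2 and 2 in the fit of the groups compared. J82 CD44v6 against parental cells, with 1, gave 0 without the filter, 3 with DESeq2, 2 with the replicate block and 0 in the fit of the groups compared. RT-112 CD44v6 against parental cells, with 1, gave 0 with the replicate block. Between lines, CD44 Low against parental cells, with 1, gave 0 without the filter and 0 with the block, and CD44v6 against CD44 Low, with 3, gave 2 without the filter, 4 with DESeq2 and 1 in the fit of the groups compared. Within J82, CD44v6 against CD44 Low, with 3, gave 2 without the filter, 4 with DESeq2 and 2 in the fit of the groups compared. RT-112 CD44 High against CD44 Low, with 3, gave 2 in that fit. The cause was not tested.

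Leaving out 1 library gave 1 to 3 genes in J82 CD44 Low against parental cells, 0 to 1 in CD44 High and 0 to 3 in CD44v6. In RT-112 it gave 0 to 2, 0 to 1 and 0 to 1 for the same comparisons, 2 to 4 in CD44 High against CD44 Low and 2 to 3 in CD44v6 against CD44 Low. J82 CD44v6 against CD44 Low gave 2 to 3. Between lines it gave 0 to 1 in CD44 Low against parental cells and 1 to 3 in CD44v6 against CD44 Low. Blocking by replicate number, which the labels do not tie to a shared day or batch, changed the count of the 10 genes called in no other comparison. It ended the calls of TCF7 (adjusted p = 0.0582) in J82 CD44v6 and WNT11 (0.0687) in RT-112 CD44v6 against parental cells and of the WNT7A difference between lines in CD44 Low (0.0576), and gave calls of WNT5A (0.0114) and WNT7A (0.0495) in J82 CD44v6 against parental cells. In the 11 comparisons where numbers did not pair the samples, correlations ran from -0.31 to 0.38. Depth limits WNT10A and WNT11 in J82 and AXIN2 and LEF1 in RT-112, where counts reached at most 11.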
